A study of Mus musculus with 2 samples.

Results

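Aerocytes, the *Car4*-positive capillary endothelial cells of the lung, were taken from 2 single-cell RNA sequencing libraries by the genes detected in each barcode, without clustering. A cell was kept with at least 2 of the endothelial genes *Pecam1*, *Cdh5*, *Cldn5* and *Calcrl* detected and at least 2 of the aerocyte genes *Car4*, *Ednrb*, *Apln*, *Fibin* and *Tbx2*, of which 1 had to be *Car4* or *Ednrb*. It also had no UMI (unique molecular identifier, the count of captured RNA molecules) of *Gja5*, *Vwf*, *Prox1*, *Ptprc*, *Col1a2* or *Epcam*, and fewer than 3 of the proliferation genes *Mki67*, *Top2a*, *Birc5*, *Cenpf* and *Ube2c*. Among the barcodes with a number of genes above 200 and below 5000 and a mitochondrial share under 20%, 604 of 45824 kept cells were aerocytes, 559 in the *Pclaf* WT library and 45 in the *Pclaf* KO library. Since measured values chose these cells, the levels of the genes named in the rule are a description and support nothing.

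Gas exchange in the alveolus takes place across a capillary net built from more than 1 kind of endothelial cell. Aerocytes are large, thin and branched cells that lie against the alveolar type 1 (AT1) epithelium, and they are known for carbonic anhydrase 4, the endothelin B receptor and a strong dependence on VEGF from the epithelium. General capillary cells are smaller, carry the receptor for apelin and the lipase anchor GPIHBP1, and are known to divide and to replace capillary cells after injury.

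The libraries came from lungs of 8- to 10-week-old *Pclaf* WT and *Pclaf* KO mice, 1 week after bleomycin, a drug that injures the alveoli, which the series' design gives as 1.35 U/kg and the study's methods give differently. *Pclaf* encodes a PCNA-associated factor that is active in dividing cells, and the KO mice are described as an established model. There was 1 library per genotype and no library without bleomycin, the number of animals behind a library was not stated, and about 16000 cells were loaded for each. The labels call the samples epithelial cells sorted as negative for CD31 and CD45 and positive for EPCAM, whereas the cells described here carried *Pecam1* (the gene of CD31) and, by the rule, no *Epcam* UMI. Over 30669 barcodes the WT library summed to 98171818 UMIs, and over 17172 barcodes the KO library summed to 111267567. Both began at 500 UMIs per barcode, and the WT barcodes outnumbered the loaded cells. The median kept cell had 2127 UMIs in WT, and 5957 in KO. The libraries had 163 barcode sequences in common, none of them of an aerocyte. With 1 library per genotype no test between genotypes was possible. Intervals below are exact 95% intervals that cover counting error only, not the spread between animals.

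The aerocytes carried endothelial RNA at levels close to or above those of other capillary cells. Levels are given as CPM, the UMIs of a gene summed over the cells of a class and library per 1000000 UMIs of that class. *Cdh5*, the adhesion molecule of endothelial junctions, stood at 2611 CPM in WT and 1992.5 in KO aerocytes, against 1831 and 1375 CPM in general capillary cells. *Cldn5*, which seals these junctions, stood at 3212 CPM in WT and 4474 in KO. General capillary cells were the cells with at least 2 of *Gpihbp1*, *Aplnr*, *Plvap*, *Kit* and *Lpl* and no UMI of *Car4* or *Ednrb*, with the same genes held at 0. Arterial cells had a UMI of *Gja5* and of an arterial marker gene. Venous cells had a UMI of *Vwf* and of a venous marker gene, and none of *Gja5*. Both met the same endothelial and proliferation limits and had no UMI of *Car4*, *Prox1*, *Ptprc*, *Col1a2* or *Epcam*. *Cdh5* and *Cldn5* took part in the rule, so their levels are no check of the label. Of 7 other genes associated with aerocytes that the rule did not use, all were detected in both libraries, and 6 of the 7 were abundant enough for the comparison with general capillary cells below.

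The aerocyte genes of the rule were read out at the following levels. *Car4*, which encodes a carbonic anhydrase on the endothelial surface, stood at 1295 CPM (1238 to 1353) in WT and 1685 CPM (1493 to 1894) in KO. *Ednrb*, the endothelin B receptor, stood at 1233 CPM (1178 to 1291) in WT and 1032.5 CPM (884 to 1199) in KO. *Apln*, the ligand apelin, stood at 265 CPM (239.9 to 292) in WT and 362 CPM (276 to 466) in KO. The intervals of the libraries overlapped for *Ednrb* and *Apln* and did not overlap for *Car4*. *Fibin*, a secreted protein, stood at 671 CPM (631 to 714) in WT and 912 CPM (772 to 1069) in KO. The transcription factor gene *Tbx2* stood at 514 CPM (478 to 551) in WT and 537 CPM (432 to 661) in KO, so that its level was nearly the same in both libraries. *Apln*, *Fibin* and *Tbx2* were at or under 10.9, 8.88 and 27.3 CPM in general capillary and venous cells of both libraries and in WT arterial cells. The 12 KO arterial cells had 0, 1 and 0 UMIs of these genes.

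**Figure D1:**
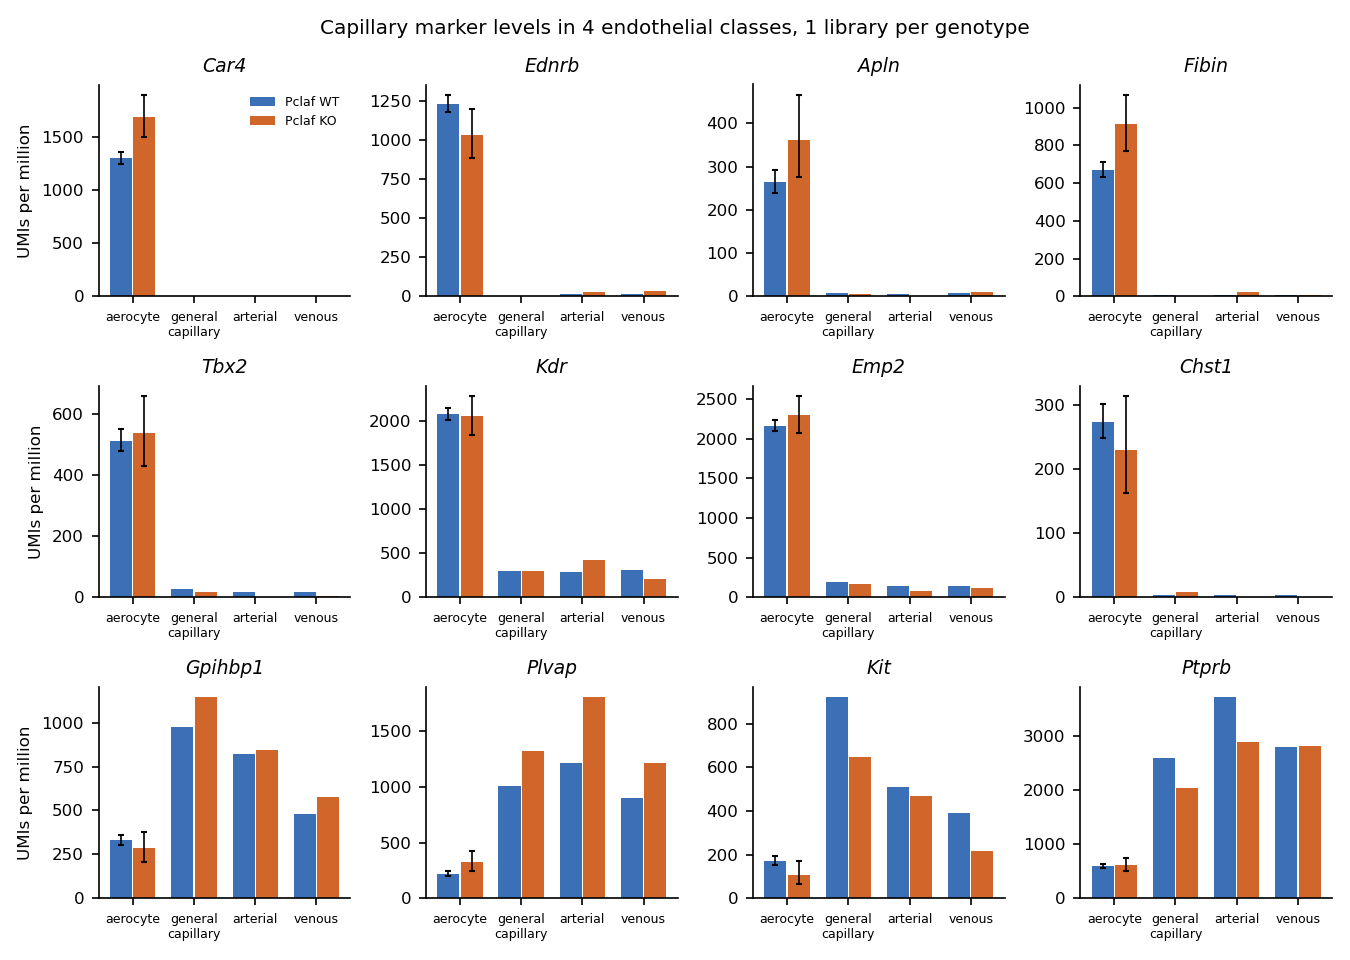
Levels of 12 capillary marker genes in UMIs per 1000000 UMIs (CPM) (vertical axes, each from 0) in aerocytes, general capillary, arterial and venous cells of the *Pclaf* WT and *Pclaf* KO libraries. Bars are 1 library each, and lines on the aerocyte bars are exact 95% counting intervals. *Car4*, *Ednrb*, *Apln*, *Fibin*, *Tbx2*, *Gpihbp1*, *Plvap* and *Kit* took part in choosing the classes, and *Kdr*, *Emp2*, *Chst1* and *Ptprb* did not. *Kdr* and *Emp2* stood at 2053 CPM or higher in aerocytes of both libraries and at 421 CPM or lower in the other classes drawn.

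*Car4* lies on chromosome 11 (84957754 to 84966054 in GRCm38.p6) and *Ednrb* on chromosome 14 (103814615 to 103844508), and a member had to have 1 of these genes, so a promoter window of each is shown. Each window runs from 250 bases before to 50 bases after a start site in the RefSeq table (GRCm38.p6), at chr11:84957504-84957803 on the plus strand and chr14:103843652-103843951 on the minus strand, and is written 5′ to 3′ along the gene. Capitals mark matches to CCGGAA, the core recognised by ETS factors, a family to which the endothelial regulators ERG and FLI1 belong.
*Car4*: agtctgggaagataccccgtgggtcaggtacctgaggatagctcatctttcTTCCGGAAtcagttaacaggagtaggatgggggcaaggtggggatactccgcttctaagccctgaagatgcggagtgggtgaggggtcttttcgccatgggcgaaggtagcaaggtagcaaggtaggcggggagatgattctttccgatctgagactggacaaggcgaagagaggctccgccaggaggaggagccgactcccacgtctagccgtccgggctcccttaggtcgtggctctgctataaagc
*Ednrb*: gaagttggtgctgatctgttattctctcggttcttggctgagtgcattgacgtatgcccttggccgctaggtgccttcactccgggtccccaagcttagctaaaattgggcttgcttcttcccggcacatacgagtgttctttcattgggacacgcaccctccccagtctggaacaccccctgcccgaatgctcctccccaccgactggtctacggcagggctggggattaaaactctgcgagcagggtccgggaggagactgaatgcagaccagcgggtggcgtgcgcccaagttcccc
On both strands, CCGGAA was found in 14.9% of 32851 promoter windows of this length. Of the 12 aerocyte genes (5 of the rule and 7 others), 11 had a window in the table and 3 held the core, namely *Car4*, *Kdr* and *Kitl*. In the *Car4* window, 2 overlapping matches on opposite strands began 199 and 197 bases before the start. The *Ednrb* window was set on a start site at base 103843701, which lies 807 bases inside the outer end of the gene given above, and it held no match. The sequence around the outer end was not used here. GGTGTGA, a half-site of T-box factors such as TBX2, was in 3.98% of windows and in none of the 11. A match describes these letters only.

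How many of the 5 aerocyte genes a cell had separated its other RNA. In WT, 172 members had exactly 2 of them, 126 had 3, 141 had 4 and 120 had 5. In KO the numbers were 9, 8, 9 and 19. Just outside the rule, 656 WT and 37 KO cells had only *Car4* or only *Ednrb*. The summed level of the 7 other aerocyte-associated genes, which the rule did not use, was 1971 CPM in those WT cells. It was 4157 CPM in WT members with 2 genes, 9913 CPM with 3, 10910 CPM with 4 and 10960 CPM with 5, beside 1676 CPM in general capillary cells. The 11 genes of general capillary cells ran the other way, from 10832 CPM just outside the rule through 6902 CPM with 2 genes to 2377 CPM with 3 genes and 2327 CPM with 5. In these 2 lists, WT members with 2 genes thus stood between general capillary cells and the members with 3 or more. The latter resembled each other in these lists. The 8 markers of the alveolar type 2 (AT2) epithelium did not follow, at 6129, 273 and 6150 CPM with 3, 4 and 5 genes. WT members with 2 genes were also the shallowest members, with a median of 1415 UMIs against 3365 UMIs for WT members with 5 genes.

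Single genes followed the lists. *Emp2*, a membrane protein, stood at 300.3 CPM just outside the WT rule, 1093.5 CPM with 2 genes and 2331 CPM with 3. *Kdr*, the main VEGF receptor, stood at 387 CPM just outside the WT rule, 851 CPM with 2 genes and 2285 CPM with 3. In KO the other aerocyte-associated genes summed to 1699 CPM just outside the rule, 2728 CPM with 2 genes and 12203 CPM with 3. The sum was 13519 CPM with 4 genes and 9099 CPM with 5, so it did not rise throughout. The KO groups held 8 to 19 cells each, and their general capillary list moved unevenly, at 5284, 4004, 469 and 3012 CPM with 2, 3, 4 and 5 genes.

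**Figure D2:**
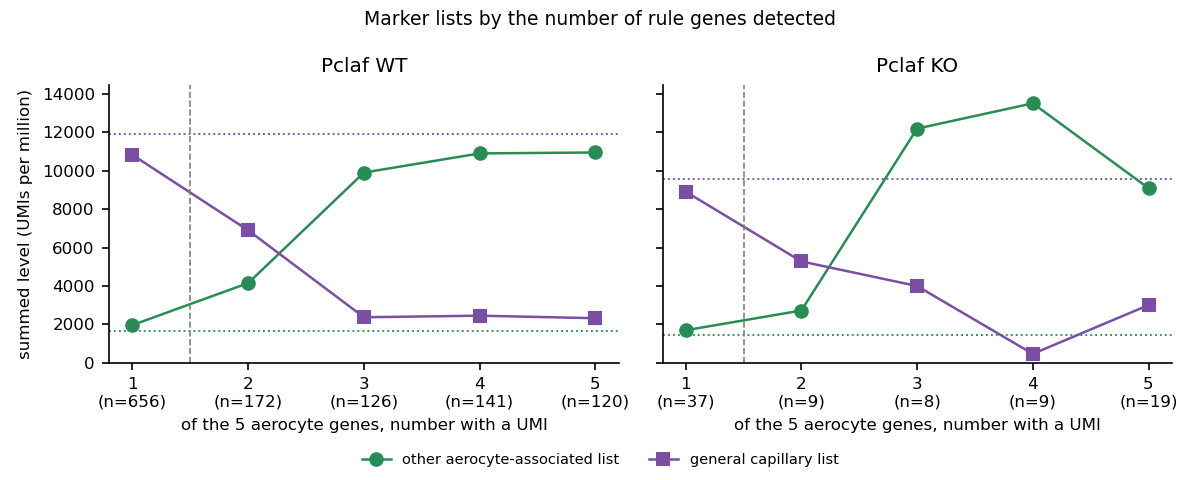
Summed levels in UMIs per 1000000 UMIs (CPM) (vertical axis) of 7 other aerocyte-associated genes and 11 general capillary genes in cells with 1 to 5 of the aerocyte genes of the rule (horizontal axis, number of cells below) in each library. The dashed vertical line is the limit of the rule, and dotted lines are the levels in general capillary cells. In WT the lists cross between 2 and 3 genes, where the aerocyte list rises from 4157 to 9913 CPM.

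Genes of general capillary cells were present in part of the aerocytes. In WT, 303 of 559 members had none of *Gpihbp1*, *Aplnr*, *Plvap*, *Kit* and *Lpl*, and 140 (25.04%, 21.5 to 28.9) had at least 2. In KO, 27 of 45 had none and 12 (26.7%, 14.6 to 41.9) had at least 2. The shares of the libraries overlapped within counting error. The summed level of all 11 general capillary genes was 3416 CPM in WT and 3206 in KO aerocytes, with *Sema3c* the most abundant, and 24.1% of these UMIs in KO lay in 1 cell. Their part in the results below was not tested directly, but each count was repeated without the members that had at least 2 of the 5 genes, with the values in the closing section.

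Against general capillary cells of their own library, aerocytes were richer in *Kdr*, *Emp2* and *Rgs6* and poorer in *Edn1*, *Ptprb* and MHC class II genes, in both libraries. The classes were chosen by their genes and share no test, so these ratios are a description. Of 3831 genes with a mean of at least 50 CPM over both classes in WT, 231 (6.03%) were at least 2-fold higher and 184 (4.8%) at least 2-fold lower in WT aerocytes. In KO, 357 (9.32%) were at least 2-fold higher and 310 (8.09%) at least 2-fold lower. No minimum was set in KO, where aerocytes held 165618 UMIs against 1516109 in WT. Many KO ratios thus rest on few UMIs, and the shares of the libraries are not compared. The median log2 ratio over all these genes was -0.01 in WT and 0.03 in KO.

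All 6 of the other aerocyte-associated genes that entered were at least 2-fold higher in aerocytes of both libraries, with a median log2 ratio of 2.63 in WT and 2.72 in KO. *Kdr* stood at 2073 CPM in WT aerocytes against 303 CPM in general capillary cells, and at 2053 against 295 CPM in KO, a log2 ratio of 2.78 and 2.80. *Emp2* stood at 2165 against 188 CPM in WT and 2300.5 against 170.5 CPM in KO, a log2 ratio of 3.53 and 3.75. Both genes differed between the classes by nearly the same factor in each library. *Kitl*, the ligand of the KIT receptor, stood at 2309 against 412 CPM in WT and 1884 against 324 CPM in KO. *Nrp1*, a co-receptor for VEGF, stood at 1545 against 577 CPM in WT and 1787 against 582 CPM in KO. *Prx*, which encodes the scaffold protein periaxin, was higher by 1.999 in WT and 2.64 in KO on the log2 scale. The receptor of the *Kitl* product was on the other side of the comparison, with *Kit* at 173 CPM in WT aerocytes and 924 CPM in WT general capillary cells, although *Kit* also took part in choosing the latter.

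The ligand and receptor genes of the apelin and endothelin axes were split between the classes. Apelin was an aerocyte gene and its receptor *Aplnr* a general capillary gene, both by the rules. Outside the rules, the endothelin gene *Edn1*, the ligand for the receptor that marks aerocytes, stood at 36.3 CPM in WT aerocytes and 201 CPM in WT general capillary cells (log2 ratio -2.47, -2.89 to -2.08). In KO it stood at 36.2 against 199 CPM (log2 ratio -2.46, -3.95 to -1.26). *Edn1* was the lowest of all genes ranked by the WT ratio on the same side in both libraries. *Ece1*, the enzyme that matures endothelin, differed by -0.43 in WT and -0.28 in KO, and *Ednra*, *Edn2* and *Edn3* were at or under 3.30 CPM in WT aerocytes. None of these 3 had a UMI in KO aerocytes, where 3 UMIs would be 18.1 CPM.

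The 12 highest genes in WT included 8 that no rule used, 7 of which are given here. *Rgs6*, a regulator of G-protein signalling, stood at 914 CPM in WT aerocytes and 6.59 CPM in general capillary cells, a log2 ratio of 7.12, and at 899.7 CPM with 0 UMIs in KO general capillary cells. *Tmeff2*, a membrane protein, stood at 363 against 2.68 CPM in WT, a log2 ratio of 7.08, and had a log2 ratio of 6.61 in KO. *Pde8b*, a cyclic AMP phosphodiesterase, stood at 261 against 2.44 CPM in WT and 289.8 against 8.52 CPM in KO. These genes were close to absent from general capillary cells of both libraries. *Chst1*, a sulfotransferase of the aerocyte list, had log2 ratios of 6.43 in WT and 4.75 in KO. *Egflam*, *Ccdc184* and *Frrs1* had log2 ratios of 5.28, 4.88 and 4.78 in WT, and none of them had a UMI in KO general capillary cells. *Car4*, *Ednrb*, *Fibin* and *Apln* completed the 12 through the rule.

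The 8 lowest genes in WT were *Edn1*, *Atp8b1*, *Mctp1*, *Kit*, *Ltbp1*, *Hmcn1*, *Gna14* and *Ntrk2*. *Hmcn1*, an extracellular matrix protein, stood at 179 CPM in WT aerocytes against 914 CPM, and at 133 against 844 CPM in KO. *Ntrk2*, the receptor for BDNF, stood at 22.4 against 112 CPM in WT and 12.1 against 73.9 CPM in KO. *Mctp1* had a log2 ratio of -2.44 in WT and rested on 1 UMI in KO aerocytes. On the whole, 10 of 11 general capillary genes entered, and 10 were at least 2-fold lower in WT aerocytes and 9 in KO, with medians of -2.02 and -1.94. Several of these 10 were rule genes. Among those that were not, *Ptprb*, a phosphatase that restrains TIE2 and VEGF receptor signalling, stood at 600.2 CPM in WT aerocytes against 2578 CPM. *Tek*, which encodes TIE2, had log2 ratios of -1.71 in WT and -1.87 in KO, and *Bmp6* had -1.999 and -2.46. *Vegfa* itself was lower in aerocytes by -1.69 in WT and -1.98 in KO, opposite in sign to *Kdr*.

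Other gene groups separated the capillary classes to different extents. Of the MHC class II genes, which present antigen to helper T cells, 4 of 5 entered, and 2 in WT and all 4 in KO were at least 2-fold lower in aerocytes, with medians of -0.98 and -1.63. *H2-Aa* stood at 175 CPM in WT aerocytes against 391 CPM in general capillary cells, and at 72.5 against 244 CPM in KO. Immune RNA moved with these genes here too: of 10 immune markers 4 entered, with medians of -0.96 and -1.41, and 2 in WT and 3 in KO were at least 2-fold lower in aerocytes. *C1qa*, a complement gene of macrophages, stood at 52.1 against 152 CPM in WT, and *Lyz2* at 1129 against 2841 CPM in KO. In KO, *C1qa* had 0 UMIs in aerocytes and 4 in general capillary cells, *C1qb* 1 and 6, and *S100a9* 0 and 1. Of the markers that entered, *Lyz2* alone was thus well counted in KO, and the KO median and count rest on few UMIs. The 10 markers summed to 1691 against 2104 CPM in WT and 1135 against 2881 CPM in KO, and their part in the class II ratios was not tested. The 5 MHC class I genes did not pass 2-fold in either library, with medians of 0.20 and 0.07. Of all genes, 6.03% were at least 2-fold higher and 4.8% lower in WT, and 9.32% and 8.09% in KO. The class I count is too close to these shares to be a result about the list. Of the p53 target genes, which respond to DNA damage, 7 of 14 entered, and 2 in WT and 3 in KO were at least 2-fold higher. *Cdkn1a*, an inhibitor of the cell cycle, stood at 613 against 169.6 CPM in WT and 447 against 99.4 CPM in KO. *Phlda3* had log2 ratios of 1.90 and 2.01. The other p53 targets that entered, such as *Bax*, *Fas* and *Btg2*, lay between -0.93 and 0.49 on the log2 scale in either library, except *Mdm2* with 1.15 in KO.

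Of the haemostasis genes that entered, 4 stayed within 2-fold in WT. Not all that entered are reported here, so this is no result about the list. Among the 4, *Thbd*, which encodes thrombomodulin, stood at 1270 against 1092 CPM in WT. In KO 1 of the 4, *Tfpi*, had a log2 ratio of -1.28. Of 4 endothelial activation genes, *Icam1* and *Icam2*, which bind leukocytes, were higher by 1.76 and 1.55 in WT and 1.28 and 1.33 in KO. Of 12 endothelial transcription factor genes, *Tbx2* of the rule and *Tbx3* were at least 2-fold higher in both libraries. *Tbx3* stood at 771 against 204 CPM in WT and 574 against 176 CPM in KO. *Sox17* and *Foxo1* were at least 2-fold lower in both, with log2 ratios of -1.51 and -1.27 in WT. *Clic5* and *Clic4*, which encode chloride intracellular channel proteins, had log2 ratios of 1.05 and 0.72 in WT and 0.87 and 0.93 in KO.

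*Hopx*, best known as an AT1 gene, stood at 557 CPM in WT aerocytes against 191 CPM in general capillary cells, and at 622 against 108 CPM in KO. The remaining AT1 markers were low in WT aerocytes, with *Ager* at 68.6 CPM, *Cldn18* at 30.3 CPM, *Aqp5* at 11.9 CPM and *Rtkn2* at 1.32 CPM. *Hopx* thus made up 82.0% of the AT1 list in WT and 81.1% in KO. Its level in WT arterial and venous cells was 122 and 94.98 CPM.

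Across the 3809 genes of no rule that were detected in KO, the log2 ratios of the libraries had a Pearson correlation of 0.778 and a Spearman correlation of 0.632. These are correlations across genes, which are not replicates. Of the 399 genes at least 2-fold different in WT, 389 lay on the same side of 0 in KO, 304 were at least 2-fold different the same way and 1 was at least 2-fold different the opposite way.

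**Figure D3:**
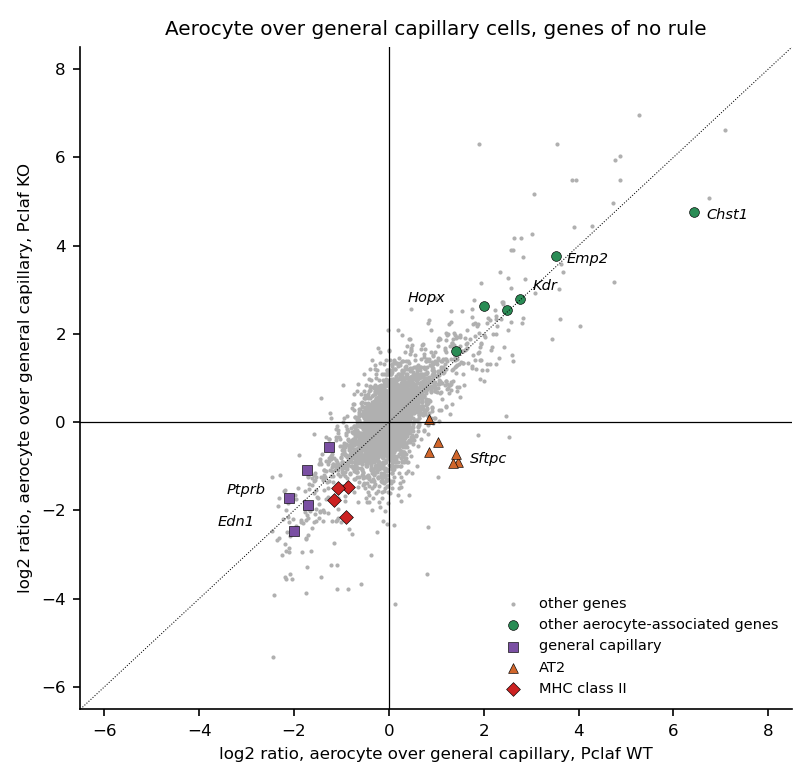
Log2 ratio of aerocytes over general capillary cells in the *Pclaf* WT library (horizontal axis) and the *Pclaf* KO library (vertical axis), 1 point per gene that no rule used. Colours mark 4 gene lists and the dotted line is equality. Other aerocyte-associated genes such as *Kdr* (2.78 and 2.80) lie at the upper right and MHC class II genes at the lower left, whereas AT2 genes such as *Sftpc* (1.35 and -0.93) lie above 0 in WT and mostly below 0 in KO.

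The question of the design, what the loss of *Pclaf* changes after bleomycin, was read out in aerocytes first by their number. Aerocytes were 7.001% (6.45 to 7.58) of 7985 WT and 10.3% (7.61 to 13.5) of 437 KO endothelial cells that were not proliferating. These endothelial cells met the endothelial and proliferation limits of the rule and had no UMI of *Ptprc*, *Col1a2* or *Epcam*. General capillary cells were 25.9% (24.99 to 26.9) of these cells in WT and 30.9% (26.6 to 35.5) in KO. Both shares were thus higher in KO, and the interval of the KO aerocyte share starts at the upper end of the WT interval. The general capillary intervals overlapped. The venous share was also higher in KO (8.08% in WT and 9.15% in KO), and the arterial share was lower (4.16% and 2.75%). The rules need detected genes and the libraries differed in depth. Among cells with at least 1000 UMIs the WT aerocyte share was 7.83%, and the part of depth in these shares was not tested. Of all kept cells, aerocytes were 1.85% in WT and 0.288% in KO, in libraries labelled as sorted epithelium, so the gate can set these shares. *Pclaf* itself had 14 UMIs in 12 WT aerocytes (9.23 CPM) and 0 UMIs in KO, where 3 UMIs would be 18.1 CPM. A difference was not detectable in aerocytes at this depth. *Pclaf* RNA was found in other KO endothelial cells, at 49.6 CPM in the 12 arterial cells and 10.9 CPM in venous cells. These KO levels rested on fewer than 3 UMIs in each class. In WT the arterial and venous classes stood at 3.90 and 5.33 CPM, and at such counts the libraries are not compared. General capillary cells stood at 11.2 CPM in WT and had 0 UMIs in KO.

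KO aerocytes were deeper, with a median of 3096 UMIs (567 to 15709) against 2321 UMIs (500 to 13589) in WT, and a median of 1580 against 1363 genes. After each cell was thinned to 1000 UMIs, which left out 96 WT and 6 KO members that were shallower, the median was 710 genes in WT and 699 in KO. The share of thinned members with a *Car4* UMI was 66.7% in WT and 69.2% in KO, where the unthinned shares were 89.1% and 91.1%. For *Ednrb* the thinned shares were 66.1% and 61.5%, and for *Kdr* 81.0% and 82.1%. *Fibin* was found in 42.5% (37.997 to 47.2) of thinned WT and 64.1% (47.2 to 78.8) of thinned KO members. Outside the endothelium, *Car4* had a UMI in 7.68% of 4989 WT and 10.8% of 360 KO *Ptprc*-positive cells without an endothelial gene, at median depths of 2802 and 4539 UMIs. *Ednrb* had one in 1.28% of these WT cells and in 0 of the 360 KO cells, which allows a share of up to 0.833%. In *Epcam*-positive cells without an endothelial gene, *Car4* had a UMI in 10.4% of 892 WT and 0.674% of 6821 KO cells, at median depths of 5873 and 7737 UMIs. The *Car4* shares outside the endothelium thus differed between cell types of the KO library and are not read as 1 background level.

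Between the genotypes, MHC class II genes were lower and AT2 genes higher in KO aerocytes. The AT2 median of 1.95 on the log2 scale was -1.32 without the members that had at least 2 general capillary genes. In KO, 3 cells held 88.1% of the AT2 UMIs. Of 3260 genes with at least 10 expected UMIs in the smaller class, 80 (2.45%) were at least 2-fold higher and 86 (2.64%) at least 2-fold lower in KO, and the median log2 ratio was -0.01. The interval excluded 0 for 80 and 78 of them. Of the 80 higher genes, 33 had at least 25% of their KO UMIs in 1 cell, as had 5 of the 86 lower genes of their WT UMIs. A change in level between 2 libraries cannot be told apart here from a change between the cells that met the rule in each.

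None of the 7 other aerocyte-associated genes passed 2-fold, a count too close to the 2.45% and 2.64% over all genes to be a result about them. The 5 rule genes, whose detection chose the cells in both libraries, are given as a description. *Car4* was higher in KO by 0.38 on the log2 scale (0.19 to 0.56), *Apln* by 0.45 (0.03 to 0.84) and *Fibin* by 0.44 (0.19 to 0.69), and *Ednrb* had -0.26 (-0.49 to -0.03). The sign of *Ednrb* was not stable, with -0.38 to 0.11 over 13 alternatives and the same sign under 10 of them. The intervals of *Tbx2* (0.06, -0.27 to 0.38), *Kdr* (-0.01, -0.18 to 0.15) and *Emp2* (0.09, -0.07 to 0.24) included 0. *Kitl* had a log2 ratio of -0.29 and *Prx* of -0.39. The median of the 7 other genes was -0.01, equal to that of all genes. *Clic4*, the chloride channel gene that the study follows, stood at 1836 CPM in WT and 1455 in KO aerocytes (log2 ratio -0.34, -0.53 to -0.14), and *Clic5* at 1377 and 990.2 CPM (-0.48, -0.71 to -0.25). *Clic1* stood at 433 and 628 CPM, so the members of this family did not share a direction.

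**Figure D4:**
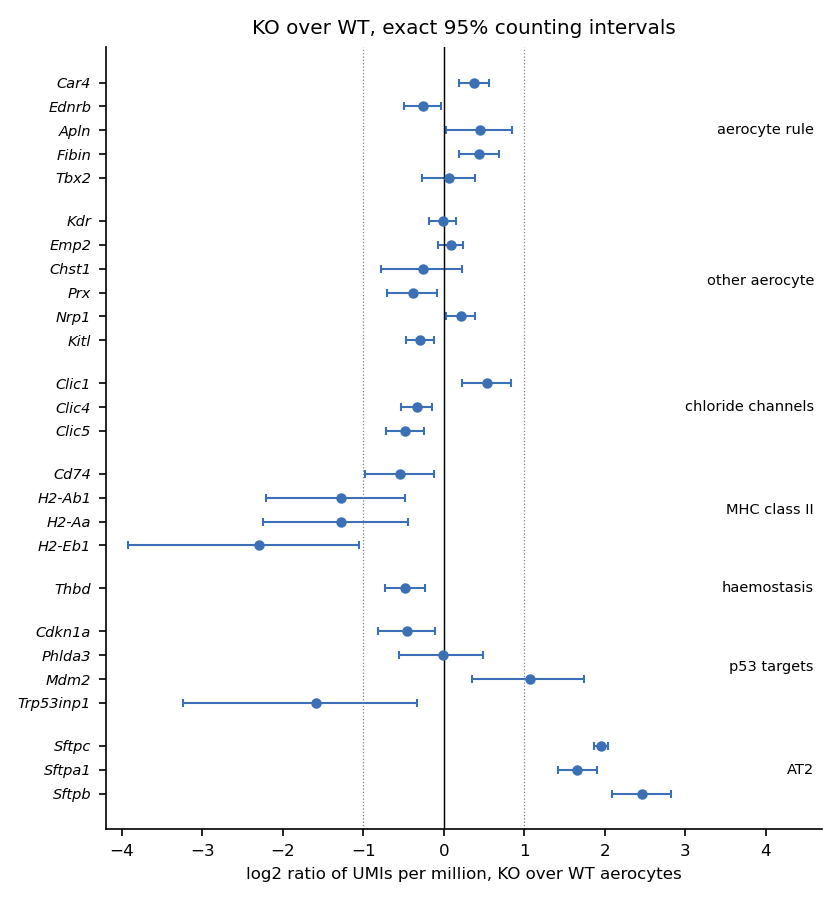
Log2 ratio of KO over WT aerocytes (horizontal axis) with exact 95% counting intervals for 26 genes in 7 groups, 1 library per genotype. Dotted lines mark 2-fold. Aerocyte genes lie within 2-fold, *H2-Aa*, *H2-Ab1* and *H2-Eb1* lie at -1.28 or lower, and the AT2 genes *Sftpc*, *Sftpa1* and *Sftpb* lie at 1.66 or higher.

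MHC class II genes were the list with the lowest median, at -1.28 over the 4 of 5 that entered, 3 of which were at least 2-fold lower in KO. *H2-Eb1* stood at 148 CPM in WT and 30.2 in KO (log2 ratio -2.29, -3.93 to -1.05). *H2-Aa* stood at 175 and 72.5 CPM (-1.28, -2.25 to -0.45), and *H2-Ab1* at 191 and 78.5 CPM (-1.28, -2.21 to -0.48). *Cd74*, the invariant chain that escorts these molecules, stood at 447 and 308 CPM (-0.54, -0.98 to -0.13). All 4 were lower in KO, on 5 to 51 KO UMIs each. The 5 MHC class I genes, found in all cells with a nucleus, were also below 0 in KO but within 2-fold, with a median of -0.38 and *B2m* at 3010 and 2095 CPM. Immune RNA moved with these genes: the 10 immune markers summed to 1691 CPM in WT and 1135 in KO, with 8 and 2 of the 10 detected, *Lyz2* the most abundant at 1460 and 1129 CPM, *Ptprc* at 0 by the rule and *Nkg7* at 0 in both. *C1qa* and *Cd68* were at 52.1 and 19.8 CPM in WT and at 0 UMIs in KO. The part of immune RNA in the class II difference was not tested. The median of the class II genes was below 0 under all 15 alternatives tried (-4.27 to -0.73) and at least 2-fold lower under 13 of them. It was within 2-fold with at least 3 of the 5 aerocyte genes (-0.73) and with up to 1 UMI of each gene held at 0 (-0.97).

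Beside the 2.45% and 2.64% of all genes that were at least 2-fold higher and lower, none of 13 junction and caveola genes, 7 genes of the VEGF and angiopoietin axis, 4 Notch genes and 11 transcription factor genes passed 2-fold, a count too close to that background to be a result about these lists. They had medians of -0.35, -0.17, -0.48 and -0.47. *Epas1*, a hypoxia-inducible factor abundant in lung endothelium, stood at 2619 CPM in WT and 1715 in KO (-0.61, -0.79 to -0.44). *Bmpr2*, the BMP receptor whose loss causes pulmonary hypertension, stood at 2119 and 1461 CPM (-0.54, -0.73 to -0.35). *Aqp1*, a water channel, stood at 959.7 and 622 CPM (-0.63, -0.93 to -0.34). Each of these 3 was lower in KO by less than 2-fold. In contrast, *Cldn5* (0.48), *Icam2* (0.43), *Hpgd* (0.42), which breaks down prostaglandins, and the BMP-responsive *Tmem100* (0.38) were higher by less than 2-fold.

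Of the 11 genes of BMP and TGF-beta response, *Id2* alone passed 2-fold, at 59.4 CPM in WT and 163 in KO (1.46, 0.78 to 2.09). Of the p53 targets, *Mdm2* was higher (66.0 and 139 CPM) and *Trp53inp1* lower (91.0 and 30.2 CPM), while *Cdkn1a* stood at 613 and 447 CPM (-0.46, -0.82 to -0.11). The p53 list thus had no common direction, with a median of -0.02. *Fos* was the 1 immediate early gene of 13 past 2-fold (224 and 103 CPM). Of all genes, 2.45% were at least 2-fold higher and 2.64% lower. A single gene past 2-fold is thus no result about the BMP and TGF-beta response or immediate early lists. *Car2*, the cytosolic carbonic anhydrase, stood at 50.1 and 121 CPM (1.27, 0.48 to 1.99), with 10 of its 20 KO UMIs in 1 cell. In *Mdm2*, 10 of 23 KO UMIs lay in 1 cell, and in *Id2* 7 of 27. *Lpl*, lipoprotein lipase, and *Lrg1*, a leucine-rich glycoprotein, were lower by more than 2-fold (-1.67 and -1.40). The signs of *Mdm2* (-0.08) and *Lrg1* (0.03) changed with the rule applied to thinned cells, and that of *Car2* (-0.15) without the members that had at least 2 general capillary genes.

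Among the 10 lowest genes in KO, ranked over genes with at least 20 expected UMIs, the 3 immunoglobulin-related genes came from a single WT barcode. *Igkc* had 3595 UMIs in WT, 98.97% of them in 1 cell, *Igha* 1185 with 99.7% and *Jchain* 857 with 100%, and none had a UMI in KO. These are genes of plasma cells. *Apoe*, an apolipoprotein abundant in macrophages, stood at 326 and 24.2 CPM (-3.76, -5.64 to -2.39), with 38.6% of the WT UMIs in 1 cell. The other 6 genes were found in 149 to 322 WT cells and rested on 9 to 42 KO UMIs in 5 to 16 cells. *S100a6*, a calcium-binding protein, stood at 281 CPM in WT and 66.4 in KO (-2.08, -3.09 to -1.23) and was found in 33.1% of WT and 15.6% of KO members. *F2r*, the thrombin receptor, stood at 199 and 54.3 CPM (-1.87, -3.01 to -0.93). *Slc12a2*, a sodium, potassium and chloride cotransporter, stood at 237 and 78.5 CPM (-1.59, -2.52 to -0.80). In each of these 3 genes the top WT cell held 5.399% of the UMIs or less. *Mgp*, matrix Gla protein, stood at 714 and 254 CPM (-1.49, -1.97 to -1.05), and *Susd6* at 298 and 109 CPM (-1.46, -2.22 to -0.78). *H2-Ab1* was the last of the 10.

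Of the 10 highest genes in KO, 6 belonged to the AT2 and airway marker lists. The 10 were *Lcn2* (44.2 CPM in WT and 525 in KO), *Ank3*, *Mecom* (33.0 and 242 CPM), *Cxcl15*, *Cbr2*, *Sftpb*, *Sftpc*, *Scgb1a1*, *Sftpd* and *Slc34a2*. In *Lcn2*, which encodes a siderophore-binding protein, 97.7% of the KO UMIs lay in 1 cell. *Sftpc*, surfactant protein C, stood at 2695 CPM in WT and 10440 in KO (1.95, 1.87 to 2.04), with 51.2% of the KO UMIs in 1 cell. *Scgb1a1*, the secretoglobin of club cells, was the exception, at 394 and 1522 CPM (1.95, 1.73 to 2.17), with 10.3% of its KO UMIs in the top cell and a UMI in 97.8% of KO and 37.4% of WT members. With the rule applied to thinned cells its log2 ratio was -0.63.

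**Figure D5:**
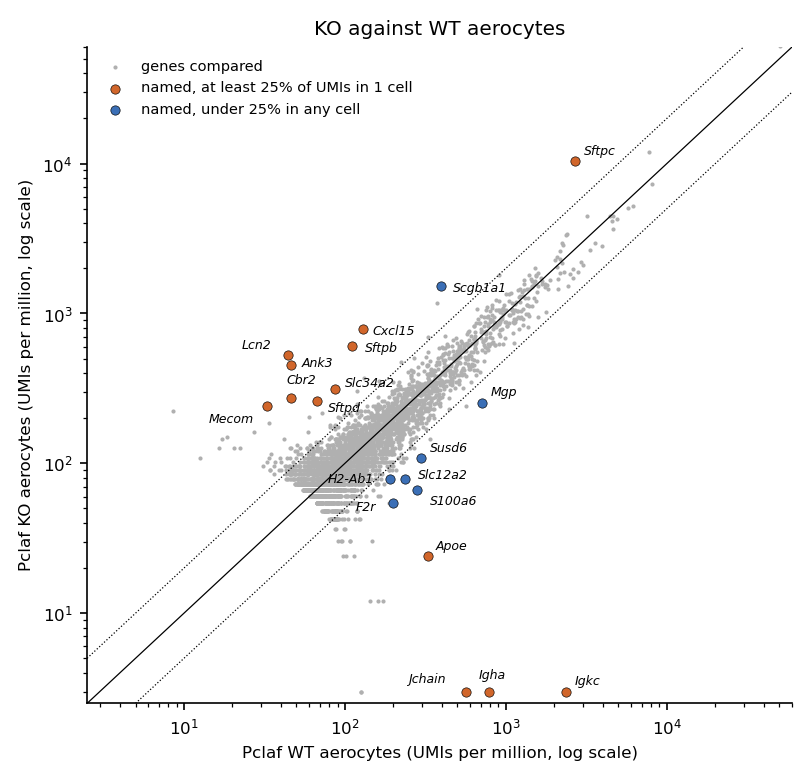
Level of each of 3260 genes in *Pclaf* WT (horizontal axis) and *Pclaf* KO (vertical axis) aerocytes, in UMIs per 1000000 UMIs (CPM) on log scales, 1 library each. The solid line is equality and dotted lines are 2-fold. Named genes with at least 25% of their UMIs in 1 cell are orange and the others blue, and genes with 0 UMIs in KO are drawn at 3. *Sftpc* lies at 2695 and 10440 CPM, *S100a6* at 281 and 66.4 CPM.

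RNA of the alveolar type 2 (AT2) epithelium differed between the libraries in both capillary classes. The 8 AT2 markers summed to 3541 CPM in WT and 13912 in KO aerocytes, and to 1438 and 25107 CPM in general capillary cells. *Sftpc* was the most abundant, at 76.1% of the list in WT and 75.04% in KO aerocytes, and all 8 were detected in both. Each of the 8 was at least 2-fold higher in KO aerocytes, with a median of 1.95. The median had the same sign under 14 of 15 alternatives and was at least 2-fold under 13, up to 4.50 with the rule on thinned cells. It was 3.02 without the members that had over 1% of their UMIs from other lineages and -1.32 without those that had at least 2 general capillary genes. A UMI of the list was found in 44.0% of WT and 100% of KO aerocytes. In *Ptprc*-positive cells without an endothelial gene, which should lack surfactant genes, *Sftpc* had a UMI in 32.5% in WT and 98.6% in KO. The shares of aerocytes were 34.3% and 100%, and KO shares this near 100% cannot show likeness. The *Sftpc* level was 1971 CPM in WT and 32046 CPM in KO *Ptprc*-positive cells, against 2695 and 10440 CPM in aerocytes. In aerocytes, 3 cells held 67.7% of the AT2 UMIs in WT and 88.1% in KO. The 6 airway markers summed to 450 and 1685 CPM, with *Muc5b* at 0 in both. Of all members, 29 in WT and 9 in KO had over 1% of their UMIs from AT2, AT1, airway, immune and immunoglobulin genes, up to 41.2% and 7.91%. *Malat1*, a nuclear RNA, stood at 7708.5 and 12016 CPM, and the median mitochondrial share was 3.73% in WT and 2.65% in KO. The part of these differences in the ratios between genotypes was not tested.

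Among WT aerocytes thinned to 1000 UMIs, 7 of the 10 genes that varied most between cells were markers of other lineages or immunoglobulin-related genes. The Fano factor (variance over mean, near 1 for counting noise) was highest for *Igkc* (232), *Sftpc* (104), *Igha* (79.0), *Jchain* (77.0), *Lyz2* (23.9), *Sftpa1* (16.1), *Scgb1a1* (14.1) and *Apoe* (11.96). *Mgp* (9.46) and *Gm42418* (9.05), a gene that overlaps ribosomal RNA, followed. *Mgp* was found in 33.9% of thinned WT members, with 12.8% of its UMIs in the top cell. The rule genes, whose detection chose the cells, had Fano factors of 1.46 for *Car4*, 1.60 for *Ednrb*, 1.31 for *Apln*, 1.58 for *Fibin* and 1.12 for *Tbx2*. Outside the rule, *Kdr* and *Emp2* had 1.67 and 1.86, and the general capillary genes *Ptprb*, *Cd93* and *Sema3c* had 2.44, 2.19 and 2.49. *Cd74* had a Fano factor of 3.05 and a UMI in 23.5% of thinned WT members.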

How the data were processed

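The authors deposited, for each library, a matrix of raw UMI counts per gene and barcode with 31053 gene identifiers and symbols, without normalization. The submitters' processing notes name Cell Ranger 3.1.0, STAR and GRCm38, and the matrix headers name Cell Ranger 5.0.0. Barcodes were kept with more than 200 and fewer than 5000 genes and under 20% mitochondrial UMIs, the limits in the study's methods, which left 30187 of 30669 WT and 15637 of 17172 KO barcodes. Classes followed from the gene rules stated with the results. Members, gene lists and tests were chosen with earlier results of these data known.

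UMIs were summed per class and library and given per 1000000 UMIs. Log2 ratios have exact conditional 95% Poisson intervals, with 0.5 UMIs added where 1 sum was 0, and shares have exact binomial (Clopper-Pearson) intervals. A count of 0 was given a limit of 3 counts. UMIs of 1 cell are not independent samples of an animal, so intervals and limits cover counting error only. The KO and WT comparison used genes with at least 10 expected UMIs in the smaller class. Called means a difference of at least 2-fold, since 1 library per genotype allows no p-value. Named were the 10 highest and 10 lowest KO over WT ratios with at least 20 expected UMIs, the 12 highest and 8 lowest WT ratios of aerocytes over general capillary cells with at least 50 CPM on average and the same side of 0 in KO, the 10 highest Fano factors, the rule genes, *Pclaf*, *Clic4*, and the most abundant or most different members of 37 gene lists. A few genes that met these rules are not reported here. Doublets stayed in the main values. Scrublet in scanpy 1.11.5 called 2358 WT and 412 KO cells (7.81% and 2.63%, where 24.2% and 12.5% were expected), among them 13 WT and 0 KO aerocytes, and leaving these out was an alternative. The other alternatives changed the limits on cells, the rule, the scaling (TMM of edgeR 4.0.16 in R 4.3.3, a total without mitochondrial, ribosomal and listed AT2, airway and immune genes, means over cells) and the minimum of UMIs. Those that left out members with RNA of other lineages or of general capillary cells were added after seeing the data. Promoters were RefSeq windows of GRCm38.p6. Python 3.11.15 with numpy 2.4.6 and scipy 1.17.1 was used, and the ratios were tested on simulated data.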

Additional observations from a re-analysis of the deposited data

Results flagged for a closer look

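The contrast of aerocytes over general capillary cells had opposite signs in the libraries, with both intervals excluding 0, for 4 epithelial genes, each at least 2-fold different in at least 1 library, and the difference between the libraries was not tested. The log2 ratio of *Wfdc2* was 1.04 in WT and -1.23 in KO. That of *Slc34a2* was 1.42 in WT and -0.73 in KO, that of *Sftpa1* 1.47 and -0.91, and that of *Sftpc* 1.35 and -0.93. Among the barcodes removed by the limits on cells, 5 in WT met the gene part of the aerocyte rule, 4 with a mitochondrial share of at least 20% and 1 with at least 5000 genes, and 2 in KO did.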

How the results depend on the processing

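No paired analysis was possible because there was 1 library per genotype, and leaving out a replicate could not be done. The number of aerocytes stayed within 1.5 times under all 20 alternatives. Of 814 ratios of single genes, aerocytes over general capillary cells, none changed sign. Among 544 KO over WT ratios, the sign changed in 21 whose reported value was past 2-fold. Within 2-fold, *Ednrb* kept its sign under 10 of 13 alternatives (-0.38 to 0.11), *Tbx2* under 11, *Kdr* under 7 and *Emp2* under 11. TMM scaling moved the median of all genes to -0.11, allowing 1 UMI of each gene held at 0 moved it to -0.15, and no minimum of UMIs moved it to 0.19. Depth is limited by the 45 KO cells with 165618 UMIs, where 1 UMI outweighs several in WT and 1 barcode can hold most UMIs of a gene.

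The aerocyte share of WT endothelial cells was 4.85% with at least 3 of the 5 genes, 7.83% with at least 1000 UMIs and 7.90% with up to 1 UMI of each gene held at 0. Without members that had 2 or more general capillary genes it was 5.25% in WT and 7.55% in KO. For KO over WT, genes higher and lower numbered 27 and 25 with 20 expected UMIs, 35 and 43 with the limits read as UMIs, 147 and 133 with means over cells, 139 and 211 with up to 1 UMI allowed, 3582 and 1593 with no minimum, and 45 and 55 without the members with general capillary genes. Without members of over 1% other-lineage UMIs, 53 were higher. Aerocytes over general capillary cells in KO gave 606 lower genes with the limits read as UMIs, and 563 higher and 632 lower without the members with general capillary genes.

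List medians, KO over WT, moved as follows. With the limits read as UMIs, AT2 was 0.84, MHC class II -2.35, the angiogenic list 0.04 and the vasoactive list 0.17. With the rule on thinned cells, AT2 was 4.50, arterial -1.18, fatty acid handling 0.01, general capillary -0.71 and vasoactive -0.03. With up to 1 UMI allowed, AT2 was 3.50, chloride channels -0.08, general capillary -0.77, haemostasis -0.73 and vasoactive -0.02. With no minimum, chloride channels were 0.54, fatty acid handling -1.01 and vasoactive -0.37. With 20 expected UMIs, the angiogenic list was 0.56 and the vasoactive list 0.00, and with means over cells the angiogenic list was -2.0. AT2 was 2.71 without Scrublet doublets and 3.02 without members of over 1% other-lineage UMIs. Without the members with general capillary genes, AT2 was -1.32, BMP response 0.41, MHC class II -4.27, the rule genes 0.60, general capillary -1.22, p53 targets 0.51 and vasoactive 0.13.

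Single KO over WT ratios past 2-fold changed sign as follows. Without the members with general capillary genes, *Car2* was -0.15, *Cxcl15* -1.79, *Lamp3* -0.58, *Lcn2* -3.44, *Napsa* -2.45, *Sftpa1* -1.32, *Sftpb* -1.86, *Sftpc* -1.12, *Sftpd* -1.12 and *Slc34a2* -3.55. With the limits read as UMIs, *Ank3* was -0.57, *Cxcl15* -0.06, *Igha* 0.58, *Napsa* -0.95 and *Sftpb* -0.64. With the rule on thinned cells, *Jchain* was 0.64, *Lrg1* 0.03, *Mdm2* -0.08 and *Scgb1a1* -0.63. Without members of over 1% other-lineage UMIs, *Igha* was 0.68 and *Napsa* -0.10. Over 13 alternatives *S100a6* ranged from -2.61 to -1.59, *F2r* from -2.69 to -1.41, *Slc12a2* from -1.80 to -1.02 and *Clic4* from -0.47 to -0.15. The cause of these shifts was not tested.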

Other observations

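Some aerocytes carried RNA of genes that lie on the sex chromosomes, although the methods name male mice. In WT, 136 of 559 had a UMI of *Xist*, 176 had one of a Y-linked gene, 10 had both and 257 had neither. In KO the numbers were 16, 18, 2 and 13 of 45. Both kinds of RNA were thus present in both libraries and rarely in the same cell.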
